A study of Mus musculus with 80 samples.

Results

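Itgam, Itgb2 and Ptprc encode the surface antigens by which microglia are usually isolated from mouse brain. Itgam encodes CD11b, the alpha chain of an integrin, Itgb2 encodes CD18, the beta chain that pairs with it, and Ptprc encodes CD45, a transmembrane tyrosine phosphatase. The 3 genes were taken by their symbols from the count tables, where they were 3 of 15919 genes listed for a comparison of sort methods and 3 of 16000 genes listed for a comparison of cell preparations. Their transcripts were read in 80 RNA-seq libraries of 22 mice. The values are of mRNA and not of surface protein.

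All mice carried Cx3cr1(Jung)-cre/Ert2+;NuTRAP+, so the groups share the tamoxifen-inducible Cre under the Cx3cr1 promoter and the NuTRAP reporter, which puts an eGFP-tagged ribosomal protein into recombined cells. Every mouse received tamoxifen by intraperitoneal injection once a day on 5 consecutive days, at 100 mg/kg of body weight, at about 3 months of age. Brains of both sexes were taken at least 2 months after the last injection. Cx3cr1 is also active in macrophages at the borders of the brain, so the reporter does not mark microglia alone. From each preparation an Input library was made of the total RNA and a TRAP library of the RNA that came down with the tagged ribosomes. In the sort comparison, 4 mice gave Tissue libraries (homogenised brain) and Cell libraries (an enzymatic and mechanical suspension). A further 4 mice gave libraries of cells held by magnetic beads that bind CD11b (autoMACS). Of those mice, 3 also gave bead-held cells that were then sorted on a cartridge sorter (autoMACS to Tyto). The cartridge sorter alone (Tyto, 5 mice) and a flow cytometer (FACSAria, 4 mice) selected cells positive for CD11b, CD45 and eGFP, and 3 mice gave both. The beads therefore selected on the product of Itgam alone, and the reporter-based sorts on the products of Itgam and Ptprc as well as on eGFP. In the cell preparation comparison, 4 mice gave Tissue libraries, 4 other mice gave Cell libraries made both with and without inhibitors of transcription and translation (actinomycin D, triptolide and anisomycin), and 4 mice gave a suspension made by Dounce homogenisation on ice with a Percoll spin. The Tissue libraries of both comparisons came from the same 4 mice and are not independent.

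CD11b and CD18 form complement receptor 3, also called Mac-1, which binds complement-coated particles, fibrinogen and the adhesion molecule ICAM-1. In the brain it is carried by microglia and border macrophages, and in blood by neutrophils, monocytes and natural killer cells. The chain CD18 also pairs with the products of Itgal, Itgax and Itgad, and no member of this integrin group reaches the cell surface without it. CD45 removes an inhibitory phosphate from Src-family kinases and is found on nearly all nucleated cells of the blood lineage, at a lower level on microglia than on blood leukocytes.

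Itgam lies on chromosome 7 at 128062640 to 128118491 on the plus strand, Itgb2 on chromosome 10 at 77530348 to 77565674 on the plus strand, and Ptprc on chromosome 1 at 138062859 to 138175305 on the minus strand (GRCm38, the assembly called mm10). The promoters of Itgam and Ptprc are shown because the products of these genes are the antigens of the sorts and because their transcripts moved by different amounts below. Each runs from 250 bases before to 50 bases after the start of the RefSeq gene (GRCm38.p6), at chr7:128062390-128062689 on the plus strand for Itgam and at chr1:138175256-138175555 on the minus strand for Ptprc. Capitals mark GAGGAA on either strand, the letters read by PU.1, a transcription factor of myeloid cells.
Itgam promoter: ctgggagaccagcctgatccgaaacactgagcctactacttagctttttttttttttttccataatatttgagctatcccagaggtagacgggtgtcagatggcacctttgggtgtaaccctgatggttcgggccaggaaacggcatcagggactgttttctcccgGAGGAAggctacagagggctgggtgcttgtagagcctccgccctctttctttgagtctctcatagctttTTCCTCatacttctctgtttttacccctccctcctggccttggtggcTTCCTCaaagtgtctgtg
Ptprc promoter: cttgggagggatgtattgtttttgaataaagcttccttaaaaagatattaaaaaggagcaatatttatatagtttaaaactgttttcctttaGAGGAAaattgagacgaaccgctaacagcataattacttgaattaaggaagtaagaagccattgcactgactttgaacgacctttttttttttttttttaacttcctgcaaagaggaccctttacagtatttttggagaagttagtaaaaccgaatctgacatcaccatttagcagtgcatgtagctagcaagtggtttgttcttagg
The Itgam window held GAGGAA at -84 on the gene's strand and at -15 and 33 on the other strand, counted from the start site as 1. The Ptprc window held it at -158 on the gene's strand. It also held GGAAGT, another form read by factors of this family, at -112 on the gene's strand and at -58 on the other strand. GAGGAA was present in 28.3% and GGAAGT in 23.8% of 32851 promoter windows of the same length. TATAAA was found in the Ptprc window at -187 and GGGCGG in the Itgam window at -47, both on the strand opposite the gene, and CCAAT in neither. These letters stood in 13.6%, 35.7% and 37.4% of all windows. GC content was 50.3% for the Itgam window and 33.7% for the Ptprc window. Itgb2 is named only.

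The 48 libraries of the sort comparison held 7129464 to 20168116 counts and the 32 of the cell preparation comparison 2471448 to 14650287 counts. Levels are given in CPM, a gene's counts divided by the library's total and scaled alike in all libraries. A gene was called changed when edgeR's quasi-likelihood test, over all genes with Benjamini-Hochberg adjustment, gave a false discovery rate (FDR) under 0.1 together with a fold change above 2, and fold changes are on the log2 scale with their standard error (SE). Since RNA of mixed cells was read, fewer cells of a type and less RNA per cell cannot be told apart. The Input library of autoMACS mouse 72 stood apart, with 11993 CPM summed over 8 microglial genes against 21759 to 22993 in the other autoMACS Input libraries, and results that rest on it are given without it where they change. The Dounce Input libraries carried 284 to 1881 CPM of neutrophil markers, against 21.8 to 110 in the Cell Input libraries without inhibitors.

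In whole brain Input the antigens were rare transcripts. Itgam was read at 14.2, 22.04, 15.97 and 15.6 CPM in Tissue Input of the 4 mice of the sort comparison, Itgb2 at 9.36, 9.79, 6.50 and 8.64, and Ptprc at 1.92, 3.42, 1.90 and 1.77. Ptprc rested there on 30 to 55 counts a library. In the cell suspension Itgam was read at 350.5, 402, 408 and 394 CPM. Itgb2 was read there at 139.6, 162, 176 and 170.1 CPM, and Ptprc at 75.7, 79.9, 88.8 and 83.0. No Cell Input library overlapped a Tissue Input library for any of the 3 genes. All 3 rose from Tissue to Cell, Itgam by 4.58 (SE 0.16, FDR 1.21e-16), Itgb2 by 4.30 (SE 0.18, FDR 1.27e-15) and Ptprc by 5.24 (SE 0.14, FDR 4.23e-18) on the log2 scale. Of all 15750 genes tested 46% were called there.

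**Figure D1:**
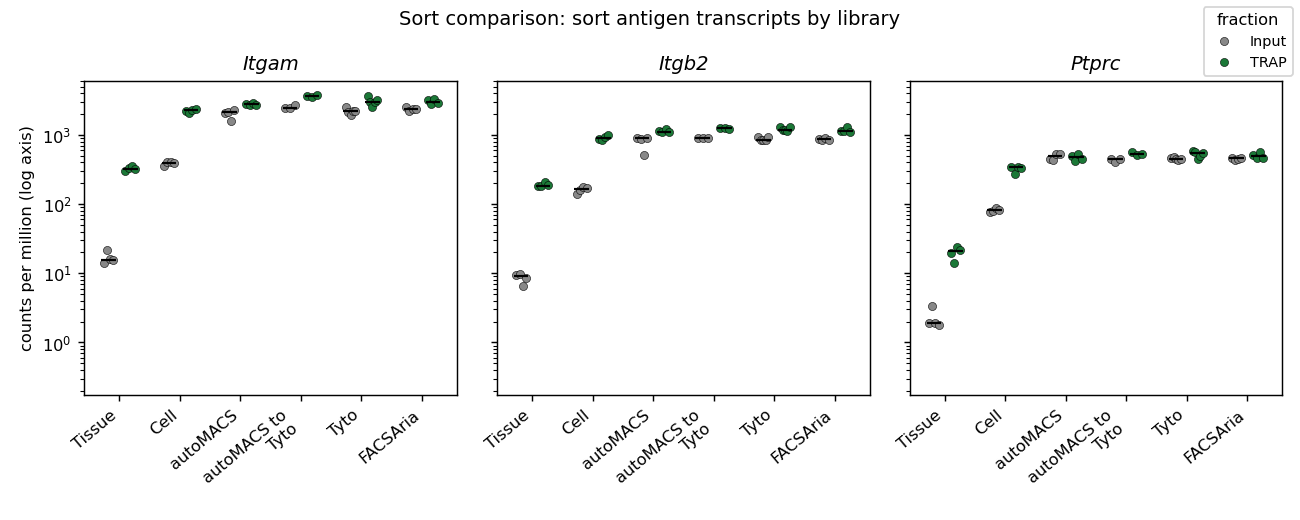
CPM (log axis) of Itgam, Itgb2 and Ptprc in every library of the sort comparison, Input in grey and TRAP in green, with a bar at each group's median. Tissue Input libraries lie lowest for each gene, Cell TRAP libraries lie near the sorted ones for Itgam and Itgb2, and Ptprc in Tissue TRAP (14.3 to 24.3 CPM) lies below Ptprc in Cell Input (75.7 to 88.8 CPM).

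Every sort raised the 3 transcripts above the suspension in Input. Itgam was read at 2111, 2115, 1568 and 2321 CPM in the autoMACS libraries, at 2435, 2425 and 2708 in the autoMACS to Tyto libraries, at 1949 to 2564 (median 2216) in the 5 Tyto libraries and at 2529, 2208, 2361 and 2380 in the FACSAria libraries. Itgb2 was read at 898, 884, 519.7 and 896 CPM in the autoMACS libraries, at 896, 899.7 and 913 in the autoMACS to Tyto libraries, at 832 to 925 (median 844) in the Tyto libraries and at 869, 859, 910.4 and 855.5 in the FACSAria libraries. Ptprc was read at 448, 430.3, 535.5 and 535.6 CPM after autoMACS, at 450.3, 409 and 447 after autoMACS to Tyto, at 440.4 to 486 (median 450.2) after Tyto and at 461, 441, 452 and 466 after FACSAria. No sorted library overlapped the suspension. The sorted groups overlapped one another, except that Itgam in autoMACS (highest 2321) lay below Itgam in autoMACS to Tyto (lowest 2425).

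Against the suspension, the rise in sorted Input was between 2.60 and 3.07 on the log2 scale for the 3 genes in the 4 sorts. For autoMACS it was 2.68 for Itgam, 2.60 for Itgb2 and 2.85 for Ptprc (51.6% of all genes called). In the same order it was 3.07, 2.85 and 2.78 when beads came before the cartridge (50.6% called). The cartridge alone gave 2.81, 2.73 and 2.78 (51.8% called) and the flow cytometer 2.93, 2.75 and 2.80 (51.1% called). All of these values were called. The beads chose cells by the product of Itgam and the reporter-based sorts by the products of Itgam and Ptprc, and CD18 travels with CD11b. The rise of Itgam and Itgb2 in every sort, and of Ptprc in the sorts that used CD45, therefore describes what was selected and is not an independent measurement. The product of Ptprc was not used for selection by autoMACS alone. Cells that carry CD11b also carry CD45, so the rise of Ptprc there is not an independent measurement either.

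No antigen transcript was called between selection by beads and by reporter in Input, by edgeR, DESeq2 or limma-voom, and none had an unadjusted p under 0.05. Itgam was lower by -0.20 in autoMACS than in Tyto and FACSAria together (95% interval -0.44 to 0.05, FDR 0.27). Itgb2 differed by -0.14 (-0.41 to 0.13, FDR 0.50) and Ptprc by 0.06 (-0.14 to 0.25, FDR 0.71). Of all genes 5.28% were called there. These edgeR intervals count Tyto and FACSAria libraries of 1 mouse as independent. The intervals leave room for differences of about the size of their bounds, so equal levels are not shown. Without mouse 72, Itgam differed by -0.05, Itgb2 by 0.05 and Ptprc by 0.06. Bead-held cells were also compared after the cartridge sort (3 mice) and before it (4 mice, the same 3 and mouse 72), without pairing. The differences were 0.39 for Itgam (SE 0.15, FDR 0.15), 0.25 for Itgb2 (FDR 0.40) and -0.07 for Ptprc (FDR 0.78). No member was called (1.96% of all genes called). Without mouse 72, with the same 3 mice on both sides, they were 0.25 for Itgam, 0.06 for Itgb2 and -0.07 for Ptprc. The 2 reporter-based sorters differed by -0.12 for Itgam, -0.03 for Itgb2 and -0.02 for Ptprc, with FDR of 0.95 or more and 0.476% of all genes called.

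The comparison of beads with reporter was repeated within the microglial signal, as the log2 distance of each member from the mean of 8 microglial genes (P2ry12, Tmem119, Siglech, Csf1r, Olfml3, Gpr34, Fcrls and Sall1), with Tyto and FACSAria libraries of 1 mouse averaged (4 mice against 6). In Input, Ptprc lay -1.99 ± 0.47 (SD) from that mean after autoMACS and -2.28 ± 0.13 after the reporter-based sorts. The difference of 0.29 had an exact permutation p of 0.138 (two-sided, 210 splits, smallest p possible 0.0048), or 0.331 adjusted over 6 tests, and without mouse 72 the difference was 0.069. Itgam differed by 0.06 and Itgb2 by 0.07, with adjusted exact permutation p of 0.433 and 0.331. In TRAP the differences were -0.10 for Itgam, -0.06 for Itgb2 and -0.11 for Ptprc, all with an adjusted exact permutation p of 0.331. For the log2 ratio of Ptprc to Itgam in Input the difference was 0.24, with an exact permutation p of 0.476 adjusted over 4 tests, and 0.073 without mouse 72. The other 3 tests of the ratios of Ptprc and Itgb2 to Itgam had an adjusted exact permutation p of 0.929.

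Without a sort, each antigen was read higher in TRAP than in Input of the same preparation. Itgam was read at 303, 335, 355 and 320 CPM in Tissue TRAP and at 2231, 2078, 2289 and 2342 CPM in Cell TRAP. Itgb2 was read at 182, 180.3, 207 and 189 CPM in Tissue TRAP and at 869, 846, 938 and 1010.4 in Cell TRAP. Ptprc was read at 19.8, 14.3, 24.3 and 21.6 CPM in Tissue TRAP and at 346, 277, 348 and 335 in Cell TRAP. The 2 preparations did not overlap for any member. All 3 rose from Tissue to Cell, by 3.08 for Itgam (SE 0.09, FDR 2.03e-19), 2.58 for Itgb2 (SE 0.08, FDR 2.00e-19) and 4.33 for Ptprc (SE 0.14, FDR 5.76e-19), where 54.3% of all genes were called. DESeq2's size factors moved the median of all genes by -0.33 in this contrast and brought the share of genes that were higher among those called from 46.2% to 35%, and the 3 members stayed called.

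Sorted TRAP libraries lay nearer to the suspension. Itgam was read at 2790, 2736, 2907 and 2669 CPM in TRAP after autoMACS, at 3627, 3493 and 3745 after autoMACS to Tyto, at 2564 to 3665 (median 2949) after Tyto and at 3165, 2808, 3316 and 2873 after FACSAria. Itgb2 lay between 1086 and 1317 CPM and Ptprc between 423 and 580 CPM over the 16 sorted TRAP libraries. Against Cell TRAP, the differences lay between 0.40 and 0.87 on the log2 scale for the 3 members in the 4 sorts. Each had an FDR of 3.85e-04 or less, and none reached the fold change above 2, so none was called. Of all genes, 23.6% were called for autoMACS against the suspension, 22.6% where beads came before the cartridge, 23.9% for the cartridge alone and 23.4% for the flow cytometer. Beads and reporter differed in TRAP by -0.16 for Itgam (FDR 0.12), -0.10 for Itgb2 (FDR 0.28) and -0.15 for Ptprc (FDR 0.33), with 2.66% of all genes called. No member was called, but the 95% interval for Itgam was negative at both ends (-0.31 to -0.0076), unlike in Input. The intervals for Itgb2 (-0.23 to 0.03) and Ptprc (-0.35 to 0.06) held both signs. As in Input, these edgeR intervals count Tyto and FACSAria libraries of the same mouse as independent. After the cartridge sort of bead-held cells Itgam was at 3493 CPM or more and before it at 2907 or less, a difference of 0.43 (SE 0.09, FDR 0.002) that did not reach the fold threshold, where 2.37% of all genes were called. Between Tyto and FACSAria no member differed by more than 0.07 in TRAP, with 0.0936% of all genes called.

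**Figure D2:**
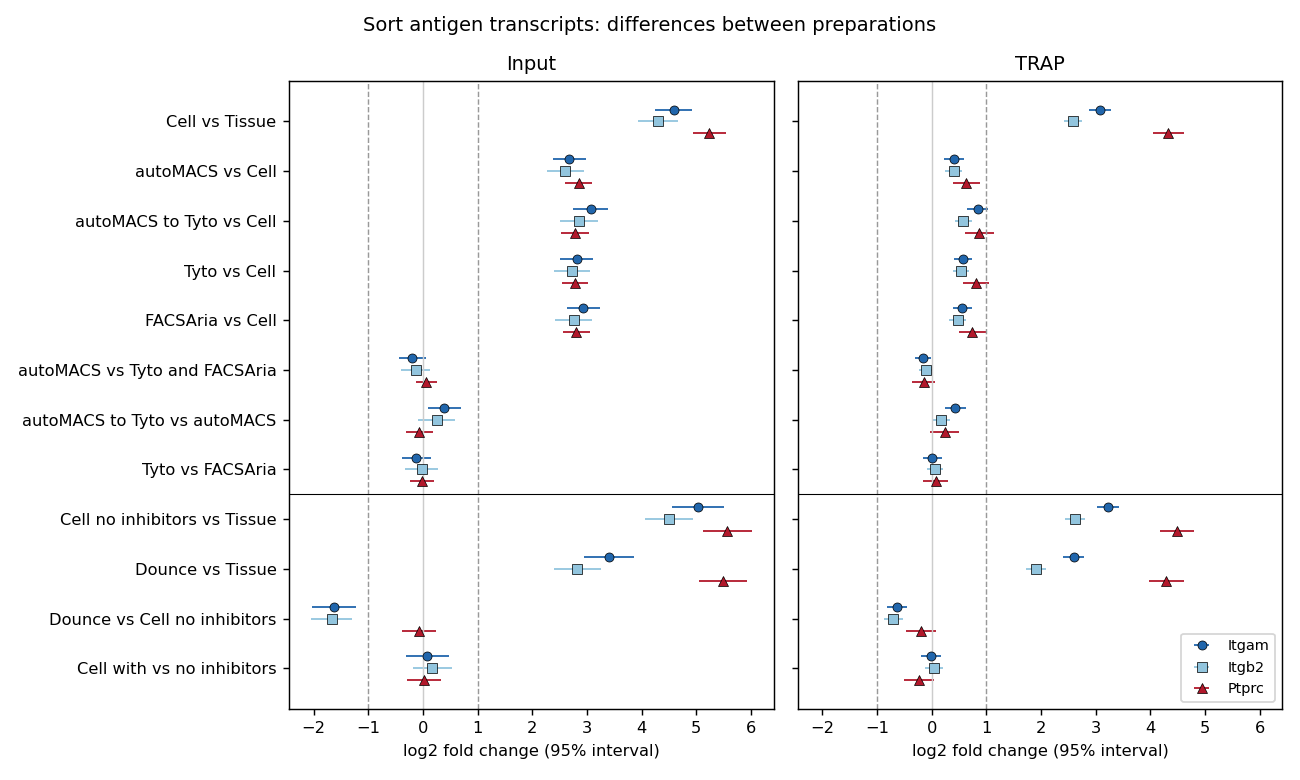
Log2 fold change of Itgam, Itgb2 and Ptprc (points) with 95% intervals (lines) from edgeR for each contrast of preparations, Input left and TRAP right, with dashed lines at the fold threshold and a solid line between the sort comparison above and the cell preparation comparison below. Ptprc lies to the right of both integrin chains in each contrast with Tissue, for example at 4.33 against 3.08 and 2.58 for Cell TRAP.

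The order of the group levels showed where neighbouring groups overlapped. For Itgb2 in the sort comparison the order of the lowest 4 groups was Tissue Input, Cell Input, Tissue TRAP and autoMACS Input, with no overlap between neighbours, and from autoMACS Input to Cell TRAP each group overlapped the next. For Itgam, Tissue TRAP (mean 328 CPM) and Cell Input (389 CPM) overlapped, and every pair of neighbours from autoMACS Input upwards overlapped. For Ptprc, Tissue Input, Tissue TRAP, Cell Input, Cell TRAP and the sorted libraries followed one another without overlap, and the 8 sorted groups all overlapped their neighbours. Compared between genes per kilobase of transcript, Itgam stood above Itgb2 and Itgb2 above Ptprc in 78 of the 80 libraries, the exceptions being the Tissue Input libraries of mouse 946 in the sort comparison and mouse 949 in the other, where Itgb2 stood above Itgam. In FACSAria Input the level per kilobase was 506 CPM for Itgam, 294 for Itgb2 and 88.9 for Ptprc, beside 828 for Cx3cr1, the gene that drives the reporter.

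Ribosome pull-down enriched the antigens most in Tissue and least in sorted cells. In Tissue, TRAP exceeded Input by 4.40 for Itgam (SE 0.13), 4.59 for Itgb2 (SE 0.14) and 3.28 for Ptprc (SE 0.16), all called with FDR at or below 7.15e-22 (11.1% of all genes called). In Cell the values were 2.98, 2.96 and 2.46, all called (47.6% of all genes called). Leaving out any 1 of the 4 mice gave lower values. They were 2.66 to 2.79 for Itgam, 2.64 to 2.75 for Itgb2 and 2.12 to 2.28 for Ptprc. In sorted cells they were smaller and none was called. After autoMACS, Itgam differed by 0.48 (FDR 8.41e-04), Itgb2 by 0.53 (FDR 3.78e-04) and Ptprc by -0.0019 (FDR 1), with 17.5% of all genes called. Beads followed by the cartridge gave 0.58, 0.51 and 0.37 (5.40% called), the cartridge alone 0.52, 0.54 and 0.27 (17% called), and the flow cytometer 0.42, 0.48 and 0.21 (10.3% called). The change of enrichment from Tissue to Cell was tested as an interaction. It was -1.42 for Itgam (SE 0.16, FDR 1.12e-09) and -1.63 for Itgb2 (SE 0.17, FDR 1.25e-10), both called, and -0.82 for Ptprc (SE 0.20, FDR 5.14e-04), not called, beside a median of -0.29 over all genes and 35.3% of all genes called. The Ptprc value became called with DESeq2's size factors (-1.15), which moved the median of all genes to -0.61, and became called without mouse 946 (-1.05) or mouse 947 (-1.35). Leaving out any 1 of the 4 mice made each interaction larger in size than in the full fit. The ranges were -1.70 to -1.55 for Itgam, -1.95 to -1.65 for Itgb2 and -1.35 to -0.84 for Ptprc. The cause of these shifts was not tested.

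The 4 Tissue TRAP libraries held less Ptprc beside the integrin chains than any other group of the sort comparison. The ratio of Ptprc to Itgam counts, here and below after adding 1 count to each gene, was 0.043 to 0.069 in Tissue TRAP, 0.133 to 0.155 in Cell TRAP and 0.143 to 0.195 over the sorted TRAP libraries. In Input it was 0.117 to 0.158 in Tissue, 0.199 to 0.218 in Cell and 0.165 to 0.342 over the sorted libraries, the highest being autoMACS mouse 72. The Tissue TRAP range overlapped none of the others. Measured from the mean of the 8 microglial genes, Ptprc lay at -4.20 ± 0.20 in Tissue TRAP, at -2.74 ± 0.17 in Cell TRAP and between -2.14 and -2.37 (group means) in sorted TRAP (SD, n = 4 in the Tissue and Cell groups). Itgam moved over a smaller range on the same scale, from -0.20 ± 0.11 in Tissue TRAP to 0.04 ± 0.09 in Cell TRAP, and Itgb2 went from -0.99 ± 0.05 to -1.25 ± 0.07. The 8 microglial genes themselves all rose from Tissue to Cell in TRAP, with a median of 2.68, so Ptprc at 4.33 lay above that median and Itgb2 at 2.58 near it. Monocyte markers, summed over 7 listed genes, went from 47.4-70.6 CPM in Tissue TRAP to 213-496 CPM in Cell TRAP, lymphocyte and natural killer cell markers, summed over 10 listed genes, from 12.5-19.3 to 30.0-39.1 CPM, and neutrophil markers, of which 3 of 8 were at 0 in all Tissue TRAP libraries and 3 in all Cell TRAP libraries, stayed below 1 CPM in both. Border macrophage markers, summed over 6 listed genes, went from 173-213 CPM in Tissue TRAP to 738-1896 CPM in Cell TRAP. The sum of the 8 microglial genes went from 4153-4972 to 22379-24714 CPM. The part of border macrophages and other leukocytes in the Ptprc result was not tested.

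**Figure D3:**
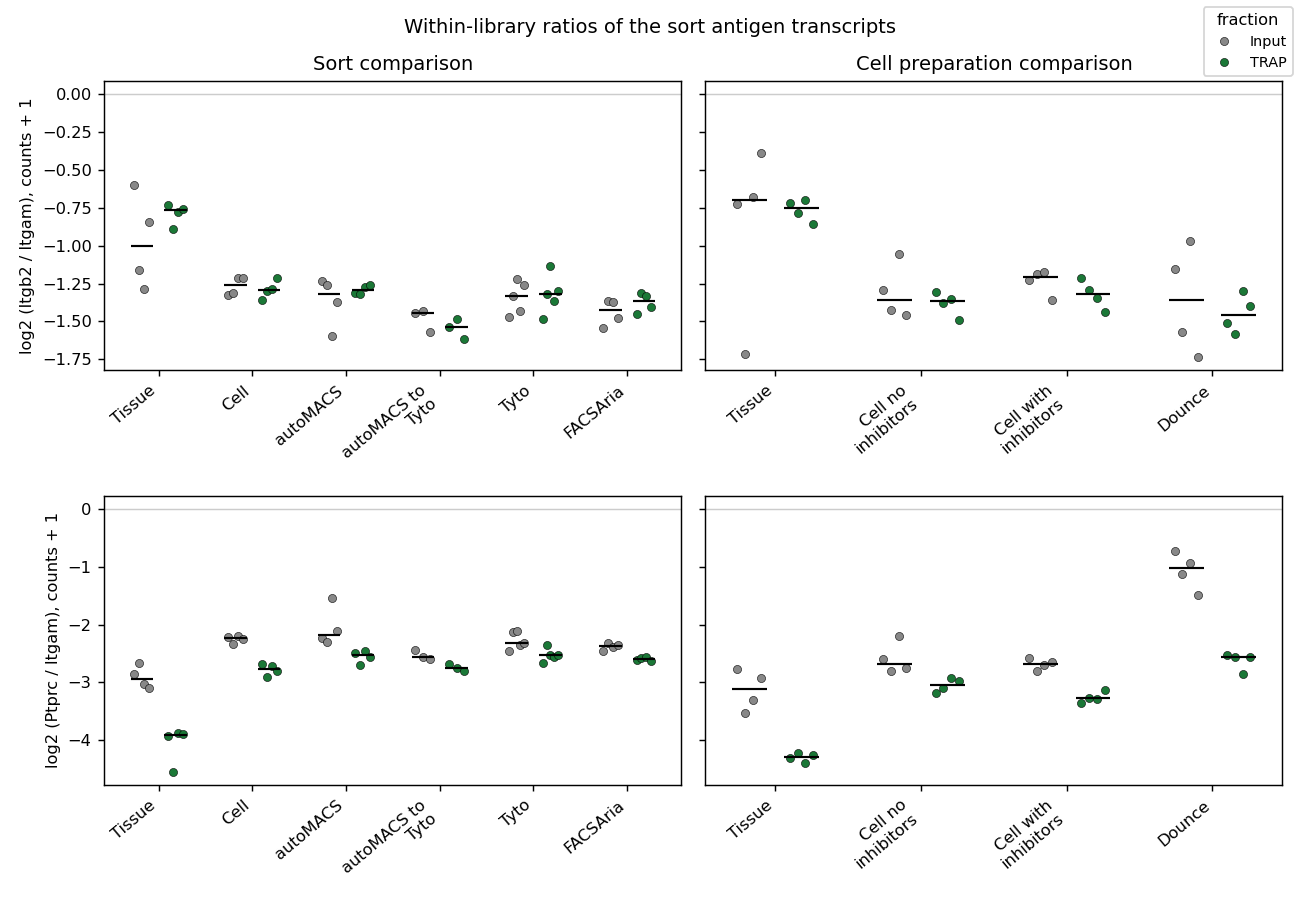
Log2 ratio of Itgb2 to Itgam counts (top) and of Ptprc to Itgam counts (bottom), each after adding 1 count, in every library of the sort comparison (left) and the cell preparation comparison (right), Input grey and TRAP green, bars at medians. Ptprc over Itgam is lowest in Tissue TRAP in both comparisons and highest in Dounce Input, where the ratio itself was 0.357 to 0.601.

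The cell preparation comparison used suspensions of other mice, and all 3 members rose from Tissue to Cell there too. In Input, Itgam was read at 15.0, 13.3, 16.9 and 12.2 CPM in Tissue and at 461, 626, 323 and 566.5 CPM in Cell without inhibitors. Itgb2 was read at 9.03, 3.95, 10.5 and 9.29 CPM in Tissue and at 188, 233, 155.5 and 207 in Cell. Ptprc was read at 2.11, 1.04, 1.62 and 1.51 CPM in Tissue, from 9 to 22 counts a library, and at 75.9, 90.2, 70.03 and 84.1 CPM in Cell. The rises were 5.03 for Itgam, 4.49 for Itgb2 and 5.57 for Ptprc in Input (all called, 44.7% of all genes called) and 3.23, 2.61 and 4.49 in TRAP (all called, 53.2% of all genes called). The ratio of Ptprc to Itgam was again lowest in Tissue TRAP, at 0.048 to 0.053, against 0.111 to 0.131 in Cell TRAP. TRAP exceeded Input by 4.57, 4.61 and 3.44 in Tissue (10.5% of all genes called) and by 2.58, 2.54 and 2.17 in Cell without inhibitors (47.3% called), for Itgam, Itgb2 and Ptprc, all called. The change of enrichment was -1.99, -2.07 and -1.27 (SE 0.23, 0.22 and 0.26), all called, beside a median of -0.61 over all genes and 38.6% of all genes called.

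The inhibitors left the antigens within the spread of the mice. With inhibitors, Itgam was read in Input at 462.5, 494, 478 and 689 CPM, Itgb2 at 198, 217, 212 and 268.5 and Ptprc at 77.4, 70.6, 73.9 and 109.4. Each range overlapped that of the same 4 mice without inhibitors. The differences were 0.08 for Itgam (95% interval -0.32 to 0.47), 0.17 for Itgb2 (-0.19 to 0.53) and 0.02 for Ptprc (-0.29 to 0.33), all with FDR 1, where 0.311% of all genes were called. In TRAP, Ptprc was read at 257, 279.5, 290.5 and 311 CPM with and at 285, 323, 363 and 323 CPM without inhibitors, lower with inhibitors in each of the 4 mice. That difference of -0.23 (95% interval -0.50 to 0.04, FDR 0.68) was not called, and Itgam (-0.02) and Itgb2 (0.04) were not called either, with 0.638% of all genes called. TRAP exceeded Input with inhibitors by 2.48, 2.40 and 1.90 for the 3 genes, all called (45.6% of all genes called).

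**Figure D4:**
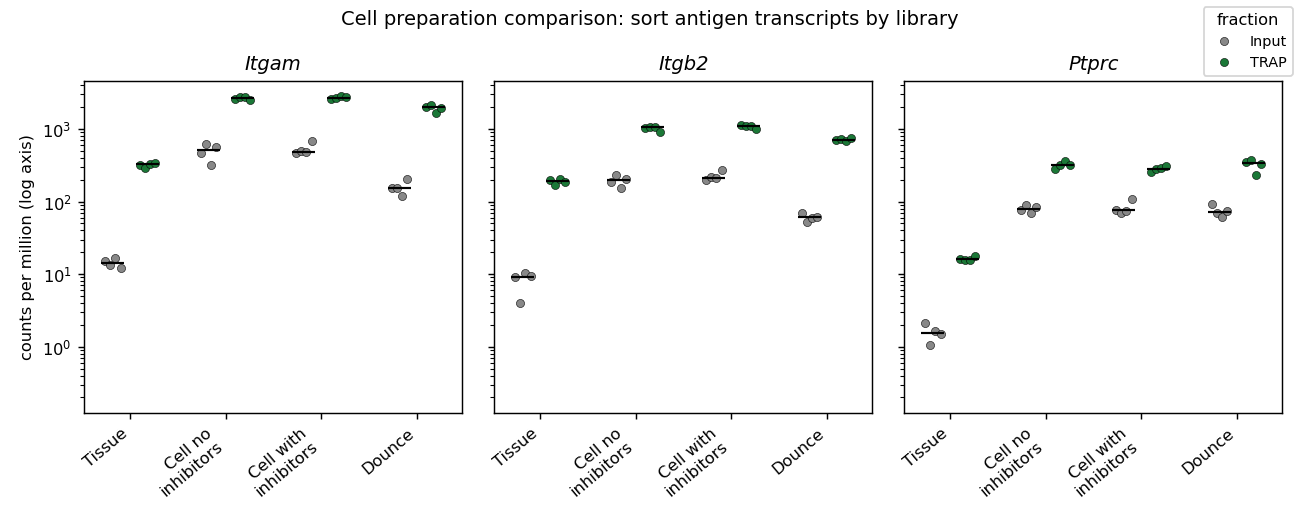
CPM (log axis) of Itgam, Itgb2 and Ptprc in every library of the cell preparation comparison, Input in grey and TRAP in green, bars at medians. In Dounce Input, Itgam (118 to 208 CPM) and Itgb2 (51.9 to 70.1 CPM) lie below the Cell Input libraries, and Ptprc (61.8 to 93.6 CPM) lies among them.

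Dounce homogenisation separated the integrin chains from CD45 in Input. Itgam was read at 156, 154, 118 and 208 CPM in the Dounce Input libraries, Itgb2 at 70.1, 51.9, 60.2 and 62.2, and Ptprc at 93.6, 70.2, 61.8 and 73.9. Both chains lay below all Cell Input libraries, and Ptprc overlapped them. Itgam fell by 1.63 (SE 0.19, FDR 2.63e-07) and Itgb2 by 1.67 (SE 0.18, FDR 6.41e-08) on the log2 scale against Cell without inhibitors, both called. Ptprc differed by -0.08 (95% interval -0.39 to 0.23, FDR 0.62) and was not called, where 56.8% of all genes were. Ptprc counts stood above Itgb2 counts in all 4 Dounce Input libraries, with a ratio of 1.03 to 1.35 after adding 1 count to each gene, and in 1 of the other 76 libraries, the Input library of autoMACS mouse 72 (1.03). Beside these values 7 of 8 microglial genes were called lower in Dounce Input (median -1.62). Neutrophil markers were called higher for 8 of the 8 genes tested, with sums of 284 to 1881 CPM against 21.8 to 110, monocyte markers for 5 of 7, with sums of 236 to 395 against 57.6 to 100.3 CPM, and lymphocyte and natural killer cell markers for 6 of 12, with sums of 71.2 to 102 against 35.2 to 43.9 CPM. Of all genes 28.8% were called higher and 28.1% lower there. No marker on these 3 lists was at 0 in all Dounce Input libraries. Border macrophage markers went the other way, with sums of 41.8 to 91.7 CPM in Dounce Input against 118 to 252 CPM in Cell Input without inhibitors. The part of all these cells in the levels of the 3 members was not tested. RNA integrity, by the study's account, was lowest in Dounce Input, and the preparation, its mice and RNA quality cannot be told apart.

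After ribosome pull-down the Dounce libraries lay closer to the enzymatic ones. Itgam was read at 2012, 2176, 1686 and 1960 CPM in Dounce TRAP, Itgb2 at 705, 724, 684 and 742 and Ptprc at 348.5, 370.2, 233 and 334. Against Cell TRAP without inhibitors the differences were -0.63 for Itgam (SE 0.09, FDR 8.24e-06), -0.71 for Itgb2 (SE 0.08, FDR 1.31e-06) and -0.19 for Ptprc (SE 0.13, FDR 0.22), none of them called, with 28.7% of all genes called. The ratio of Ptprc to Itgam was 0.138 to 0.173 in Dounce TRAP, above the 0.111 to 0.131 of Cell TRAP, and neutrophil markers summed to 2.27 to 35.98 CPM in Dounce TRAP against 0.292 to 4.23 in Cell TRAP. Against Tissue, Dounce raised Itgam by 3.41, Itgb2 by 2.82 and Ptprc by 5.49 in Input (50.1% of all genes called) and by 2.60, 1.91 and 4.29 in TRAP (50.3% called), all called. TRAP exceeded Input within Dounce by 3.92, 3.84 and 2.40, all called (47.5% called).

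Other integrin chains of leukocytes were read beside the members. Of 5 leukocyte integrin chains (Itgal, Itgax, Itgad, Itga4 and Itgb7), 4 rose from Tissue to Cell in Input, with a median of 1.60 beside 0.17 over all genes. Of all genes 28.5% were called higher and 17.5% lower there. Itgax, the alpha chain CD11c, rose most, by 4.25 (SE 0.32), and rose again by 2.96 in FACSAria cells against the suspension. Itgal, the alpha chain of the lymphocyte integrin LFA-1, rose by 3.17 from Tissue to Cell. Itgad rose by 1.59 (SE 0.63, FDR 0.029), a call lost without mouse 947, and it fell by 2.49 in FACSAria cells against the suspension. Itgad and Itgax are paralogs of Itgam, and reads from stretches they share could have been split between them by the counting. Itga4, the alpha chain of VLA-4, was not called from Tissue to Cell (0.35, FDR 0.18). Of 14 other integrin chains tested, 11 rose, from Itgb6 at 1.42 to Itga1 at 5.35.

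Itgb7 and Itgal were higher in bead-held than in reporter-selected cells. Itgb7, the beta chain of gut-homing lymphocytes, was read at 8.98 to 15.8 CPM in autoMACS Input and at 0.80 to 3.94 CPM in Tyto and FACSAria Input, and was higher by 2.59 (SE 0.25, FDR 3.31e-06). Itgal was read at 13.3 to 39.4 CPM in autoMACS Input and at 2.99 to 11.7 CPM in the reporter-based sorts, and was higher by 2.04 (SE 0.28, FDR 1.36e-04). Itgax differed by -0.03 (FDR 0.94), and Itgb8 was lower by -2.34. In TRAP, Itgal differed by 0.06 and was not called. Itgb7 was higher by 1.04 (FDR 0.05), a call lost without mouse 73, 945 or 992 and with limma-voom. Within the autoMACS libraries Itgb7 fell by 2.72, Itgal by 2.33 and Itga4 by 1.11 from Input to TRAP, the last a call lost without mouse 72. From bead-held cells (4 mice) to the cartridge-sorted cells of 3 of these mice Itgb7 fell by 1.92 (SE 0.35, FDR 0.010), a call lost without mouse 67. Beside these values, 8 of 8 neutrophil, 4 of 7 monocyte and 4 of 10 lymphocyte and natural killer cell markers tested were called higher in autoMACS Input than in the reporter-based sorts, with neutrophil sums of 70.2 to 270.4 CPM in autoMACS, 31.3 to 89.6 in Tyto and 0.094 to 43.8 in FACSAria, and none of the 8 microglial genes was called (median -0.18). Of all genes 3.35% were called higher there. In the cartridge-sorted cells of 3 of the autoMACS mice, neutrophil sums in Input were 37.01 to 249.9 CPM (median 81.18). That range overlapped the range before the cartridge sort. The part of neutrophils, monocytes, lymphocytes and natural killer cells in Itgal and Itgb7 was not tested.

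**Figure D5:**
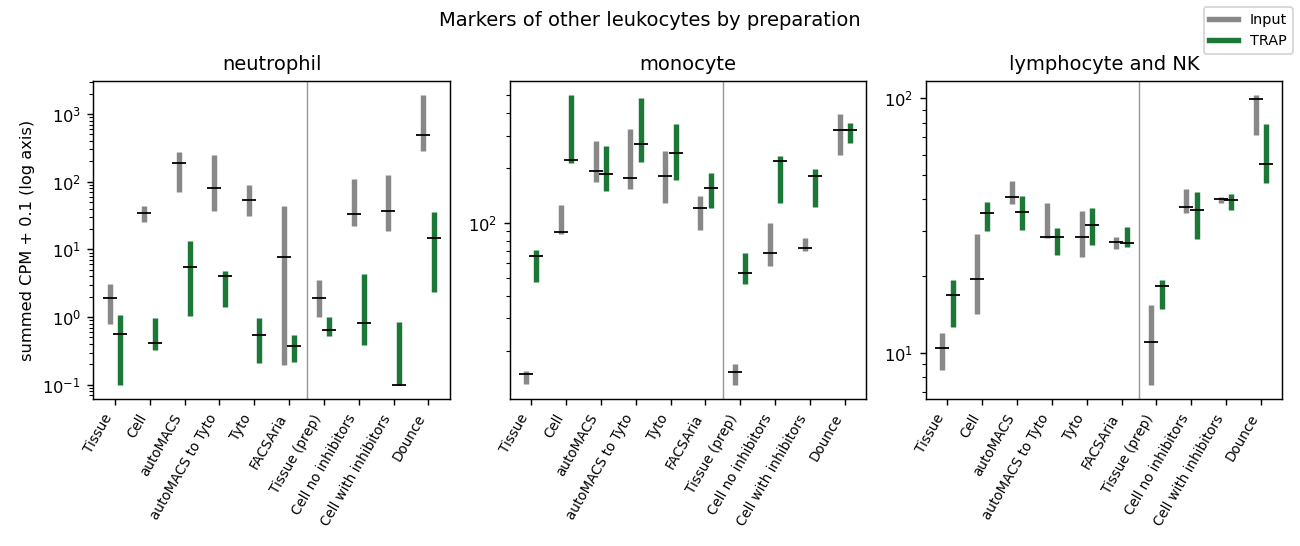
Summed CPM plus 0.1 (log axes) of the neutrophil, monocyte and lymphocyte and natural killer cell marker lists by preparation, bars from the lowest to the highest library with a line at the median, Input grey and TRAP green. Neutrophil markers reach 284 to 1881 CPM in Dounce Input, and in TRAP no group exceeds 35.98 CPM.

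The genes that work with the antigens inside the cell were described by list. Of 15 integrin activation genes tested, which link CD18 to the cytoskeleton, 11 rose from Tissue to Cell in Input and none fell, with a median of 2.07 beside 0.17 over all genes. Fyb, an adaptor of integrin signalling, rose by 4.41, Fermt3, the kindlin of blood cells that binds the tail of CD18, by 3.93, and Rap1a, a small GTPase upstream of it, by 1.49. Of 16 Src-family kinases and adaptors that act at CD45 and CD11b, 13 rose and none fell (median 3.23), from Csk, the kinase that adds the phosphate CD45 removes, at 1.16 to Lcp2, an adaptor, at 4.45. Lyn rose by 3.79, Syk by 3.93 and Tyrobp, the adaptor DAP12 that signals with CD11b, by 3.49. Of 12 other immune phosphatases, 3 rose (median 0.34), namely Inpp5d at 4.34, Ptpn6, the phosphatase SHP-1, at 3.99 and Ptpn18 at 3.18. Of 10 ligands of the antigens, 7 rose and 2 fell. Icam1, a ligand of CD11b and CD18, rose by 4.18, C3, the source of the complement fragment that complement receptor 3 binds, by 1.92, and Icam5 and Thy1, both made by neurons, fell by 4.10 and 3.25. These counts stand beside 28.5% of all genes called higher and 17.5% lower, and the 3 of 12 phosphatases lie near the first of these shares.

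From Tissue to Cell in TRAP, 25.1% of all genes were called higher and 29.3% lower. Of 16 integrin activation genes tested, 10 rose and 1 fell, and of 10 ligands 6 rose and 2 fell. Of 15 Src-family kinases and adaptors tested, 11 rose and 2 fell, from Lck, a lymphocyte kinase, at -3.28 to Pag1 at 3.49. Tyrobp differed by 0.81 and did not reach the fold threshold, although in Input it had risen by 3.49, and Syk rose by 2.60. Of 12 other phosphatases 5 rose, the largest being Inpp5d at 3.04. Fermt3 rose by 2.39 and Fyb by 2.84. In Tissue, pull-down raised Tyrobp by 4.88, Fcer1g by 4.96, Ptpn6 by 4.61, Fermt3 by 4.27 and Itgax by 3.88, beside 4.40 for Itgam.

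Beads and reporter were compared over the same lists, where 5.28% of all genes were called in Input and 2.66% in TRAP. In Input no integrin activation gene of 15 was called by edgeR, DESeq2 or limma-voom, with 8 of the 15 at an unadjusted p under 0.05, beside 30.9% of all genes. Called were 1 of 16 Src-family kinases and adaptors (Lck, higher by 2.06), 1 of 12 other phosphatases (Ptpn7, a phosphatase of lymphocytes, higher by 2.29) and 1 of 10 ligands (Lgals3, higher by 1.12). Without mouse 72 Lck was at 1.54 and Ptpn7 at 0.96, neither of them called, and without mouse 67 Lgals3 was at 0.93 and not called. In TRAP no gene of these 4 lists was called by any of the 3 tools, with 10 of 16, 8 of 15, 8 of 12 and 3 of 10 genes at an unadjusted p under 0.05 in the order named, beside 35.8% of all genes. In Dounce Input against Cell without inhibitors, 8 of 16 Src-family kinases and adaptors fell and none rose, from Tyrobp at -2.30 to Csk at -1.17, and 6 of 16 integrin activation genes fell, Fermt3 by 2.00 and Fyb by 1.88, where 28.1% of all genes were called lower and 28.8% higher. Ptpn7 rose by 5.44, Ptpn22 by 5.38 and Itga4 by 3.40 there, while Itgax fell by 2.50 and Inpp5d by 2.10. Itga4 was read at 171 to 235 CPM in Dounce Input and at 16.8 to 23.1 CPM in Cell Input. In Dounce TRAP Itga4 stood at 54.3 to 114 CPM, higher by 2.01 than in Cell TRAP, and Ptpn7 and Ptpn22 were higher by 4.17 and 3.13. With inhibitors against without, no gene of these lists or of the integrin chains was called by the 3 tools, with 1 of 72 genes tested in Input and 5 of 70 in TRAP at an unadjusted p under 0.05, beside 3.38% and 8.92% of all genes.

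Over the 12 group means of the sort comparison, which share depth, table and preparation, the profiles most like each member among 9877 genes were taken by Pearson's r of log2(CPM + 1) as a description. For Itgam they were Mpeg1 (0.9992), Emr1 (0.9987), Nckap1l (0.9987), Epb4.1l2 (0.9986) and Lcp1 (0.9986). For Itgb2 they were Fermt3 (0.9995), Mpeg1 (0.9994), Olfml3 (0.9994), Nckap1l (0.9993) and Fcgr1 (0.9993). For Ptprc they were Tmc6 (0.9982), Tcirg1 (0.9967), Ggt5 (0.9966), Tap1 (0.9965) and Icosl (0.9964). Itgam and Itgb2 reached 0.998 with each other, Itgam and Ptprc 0.979, and Itgb2 and Ptprc 0.967.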

How the data were processed

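RNA-seq of Input and TRAP RNA was compared in 48 libraries of sorted, suspended and whole brain and 32 libraries of other cell preparations. Per the study's methods, the authors made stranded poly(A) libraries, aligned reads to mm10 in Strand NGS, removed duplicates, and kept genes with more than 5 reads in all samples of at least 1 group. The deposited raw values are estimated counts that need not be whole, and they were rounded before count models. The submitters' processing notes name DESeq2 for the normalised values, which stand in 104 columns not used here.

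Genes with more than 5 counts throughout any 1 group were fitted with edgeR 4.0.16 (R 4.3.3, TMM scaling, glmQLFit). Input and TRAP were fitted separately for preparations and together for enrichment. DESeq2 1.42.0 and limma 3.58.1 (voom with the mouse as a random block) were alternatives, as were DESeq2 size factors, no filter, a filter of 10 counts in every sample, the mouse as a fixed block, and leaving out each mouse. Calls took FDR under 0.1 and a fold above 2. The planned list of microglial genes held 1 gene more, which is not reported here and entered no value. Ratios and distances were tested over mice by exact permutation (scipy 1.17.1). The edgeR fit was tested on simulated data for autoMACS against Cell in Input and Dounce against Tissue in TRAP. Far fewer genes were changed in the simulation than were called in the data, so the choice of scaling was not tested there. Levels per kilobase used exons of coding transcripts of GRCm38. Promoters came from RefSeq tables and matched 2 of the 3 members. Of the gene symbols, 23 stood as dates in each table and were restored.

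Replicate numbers are mouse numbers in the titles, so libraries of 1 mouse are paired by animal, and the mean correlation of their deviations ran from -0.0036 to 0.28 over contrasts. The 3 members and all gene lists were chosen with earlier results of these data known. Named from the lists were the genes with the highest and the lowest called fold change in a contrast and genes described by role. Other genes named with a caveat were chosen after their values were seen.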

Additional observations from a re-analysis of the deposited data

Results flagged for a closer look

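A sample was marked when its gap to the nearest other library of its group passed Dixon's 95% critical value. Of 90 groups tested 5 were marked, and chance marks about 1 in 20. Ptprc stood at 3.42 CPM in the Tissue Input library of mouse 947 in the sort comparison, against 1.77 to 1.92 in the other 3. In the Tissue TRAP library of the same mouse the log2 ratio of Ptprc to Itgam was -4.54, against -3.93 to -3.87. Ptprc itself was lowest of its group in that TRAP library, at 14.3 CPM. Itgb2 stood at 519.7 CPM in the autoMACS Input library of mouse 72, against 884 to 898 in the others. Itgam stood at 689 CPM in the Cell Input library with inhibitors of mouse 1362, against 462.5 to 494. The log2 ratio of Ptprc to Itgam was -2.86 in the Dounce TRAP library of mouse 181, against -2.55 to -2.53.

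The enrichment by pull-down differed between Tissue and Cell by the interaction term. In the sort comparison it was smaller in Cell by -1.42 for Itgam and by -1.63 for Itgb2. In the cell preparation comparison, whose Tissue mice are the same, it was smaller in Cell without inhibitors by -1.99 for Itgam, -2.07 for Itgb2 and -1.27 for Ptprc.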

How the results depend on the processing

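Of the member results recomputed under the alternatives, 1376 kept direction and side of the threshold, 33 changed sign and 5 became called. Every sign change concerned a difference that was not called. With the replicate block, which pairs libraries of 1 mouse, Itgb2 differed by 0.0189 between Tyto and FACSAria in Input, and Ptprc by 0.0448 between TRAP and Input in autoMACS. The block changed no call of a member. The last difference was also 0.0519 with DESeq2's size factors, 0.0322 with at least 10 counts in every sample, 0.0522 with DESeq2's Wald test and 0.00034 with limma-voom. The interaction for Ptprc in the sort comparison became called in the first 3 of these, at -1.15, -1.16 and -1.16. Against Cx3cr1 alone as reference, the TRAP distances of autoMACS from the reporter-based sorts were 0.0417 for Itgam, 0.0805 for Itgb2 and 0.0357 for Ptprc. The Itgb2 to Itgam ratio in Input differed by -0.0212 from Tyto alone, and the Ptprc to Itgam ratio in TRAP by 0.0421 from FACSAria alone. The cause of these changes was not tested.

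Leaving out 1 mouse at a time gave these ranges. Between autoMACS and the reporter-based sorts in Input they were -0.23 to 0.0527 for Itgb2, -0.00284 to 0.10 for Ptprc and -0.22 to 0.0801 for Itgax, and in TRAP -0.25 to 0.32 for Itgal. Between Tyto and FACSAria they were -0.0489 to 0.000611 for Itgb2 and -0.0429 to 0.00763 for Ptprc in Input, and -0.053 to 0.0777 for Itgam in TRAP. With against without inhibitors they were -0.0364 to 0.25 for Itgam and -0.12 to 0.16 for Ptprc in Input, and -0.0316 to 0.0119 for Itgam in TRAP. Ptprc ranged -0.22 to 0.00226 between Dounce and Cell Input, -0.0424 to 0.0822 between TRAP and Input in autoMACS, and -1.35 to -0.84 in the interaction of the sort comparison. The full-fit value of that interaction, -0.82, lay outside its range. The Input distance of Itgam from the microglial genes ranged -0.00412 to 0.0976, the Itgb2 to Itgam ratio in Input -0.0333 to 0.0867 and the Ptprc to Itgam ratio in TRAP -0.036 to 0.0414.

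Counts over all genes moved further. Bead against reporter in Input called 832 genes and 489 without mouse 72, and TRAP against Input in autoMACS called 2771, 1247 without mouse 72 and 884 with the replicate block. The same block brought Tyto from 2687 to 1270 and FACSAria from 1637 to 777 genes. With DESeq2's size factors the share of called genes that were higher went from 35.2% to 21% for TRAP against Input in Cell and from 16.3% to 5.23% for the interaction of the sort comparison. Depth limited Ptprc in Tissue Input, read from 9 to 55 counts a library.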

Other observations

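Markers of other brain cells moved around the antigens as follows. From Tissue to Cell in Input of the sort comparison, 6 of 6 neuronal markers fell (median -2.92), while 6 of 6 oligodendrocyte, 4 of 6 astrocyte, 5 of 5 endothelial and 6 of 6 border macrophage markers rose. From Cell to FACSAria in Input, 6 of 6 neuronal, 6 of 6 oligodendrocyte, 6 of 6 astrocyte and 4 of 5 endothelial markers fell, and 5 of 6 border macrophage markers rose (median 1.49) beside 8 of 8 microglial genes (median 2.76). Pull-down from Tissue raised 6 of 6 border macrophage markers (median 4.28) and lowered 6 of 6 oligodendrocyte markers (median -2.10). Among all genes tested, 28.5% were called higher and 17.5% lower from Tissue to Cell in Input. From Cell to FACSAria in Input the shares were 17.12% higher and 33.98% lower. For pull-down from Tissue they were 9.23% higher and 1.87% lower.

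Cx3cr1, the driver of the reporter, was read at 2373 to 3465 CPM in autoMACS Input and at 3063 to 3945 CPM over Tyto and FACSAria Input. In Dounce TRAP Cx3cr1 stood at 3252 to 3973 CPM, above or within the 2882 to 3264 CPM of Cell TRAP without inhibitors, while Itgam stood below.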
